A study of Mus musculus with 4 samples.

Results

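NF-kB is a family of dimeric transcription factors, and the 10 genes described here encode its 5 subunits (Rela, Nfkb1, Nfkb2, Relb and Rel), 3 IkB proteins that hold the dimers in the cytoplasm (Nfkbia, Nfkbib and Nfkbie), the ubiquitin-editing inhibitor A20 (Tnfaip3), and the kinase IKK beta (Ikbkb). They were chosen by gene symbol, and all 10 were found once among the 55487 genes counted. RNA was sequenced from wild-type mouse embryonic fibroblasts (MEFs), primary cells with a limited replicative lifespan, at passage 2 by the sample labels. The PEDF group received pigment epithelium-derived factor, a secreted serpin purified from mammalian cells, at 100 ng/mL for 24 h, and the control group was left untreated. Each group had 2 libraries, 1 from experiment 1 and 1 from experiment 2, and different embryos were used in each experiment. The libraries held between 14722848 and 18144640 counts, the genes of this family held 422 to 4630 counts each over the 4 libraries, and all 10 were among the 19384 genes tested.

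In resting cells, IkB proteins mask the nuclear localization signal of NF-kB dimers. Cytokines or danger signals activate the IKK complex, which marks IkB for degradation, and the freed dimers enter the nucleus. NF-kB then induces several of its own regulators, among them Nfkbia, Nfkbie, Tnfaip3, Nfkb1, Nfkb2 and Rel, so that their transcripts are commonly read as signs of the pathway's activity. In fibroblasts the pathway drives the expression of cytokines and chemokines, many of which belong to the senescence-associated secretory phenotype.

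Short promoter sequences around letters that resemble an NF-kB site are shown, because autoregulation through such sites is what makes these genes a readout of the pathway. The letters searched were GGGNNNTTCC on both strands, in RefSeq promoters from 250 bases before to 50 bases after each annotated start (GRCm38.p6). Promoters were found for 7 of the 10 genes, and 5 of these 7 held the letters, compared with 1704 of 27025 genes with a promoter (6.3%). Rela and Nfkbib had no match in this window. The capitals mark the match, each sequence is written 5′ to 3′ on the strand of its gene, and a match of letters is not evidence of binding. Nfkb2 held the letters at 4 positions in its promoters and Tnfaip3 at 3, and for each gene the match nearest to the start in its most upstream promoter is shown. The windows lie at chr19:46304716-46304745 (Nfkb2, plus strand), chr11:23771041-23771070 (Rel, minus strand), chr12:55492657-55492686 (Nfkbia, minus strand), chr17:45555584-45555613 (Nfkbie, plus strand) and chr10:19015403-19015432 (Tnfaip3, minus strand).
Nfkb2: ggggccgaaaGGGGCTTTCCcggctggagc
Rel: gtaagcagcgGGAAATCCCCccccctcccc
Nfkbia: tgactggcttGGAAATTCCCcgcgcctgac
Nfkbie: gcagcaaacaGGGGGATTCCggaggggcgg
Tnfaip3: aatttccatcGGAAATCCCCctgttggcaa

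The level of each gene was compared first. Levels between genes are given as TPM, which divides the counts by gene length. Rela, the main transactivating subunit, had the highest level, with 63.1 TPM in control 1, 68.2 in control 2, 63.1 in PEDF 1 and 64.3 in PEDF 2, where the number is that of the experiment. Nfkbia followed with 40.0 to 49.1 TPM over the 4 libraries, and Nfkb2, the precursor p100 of the subunit p52, with 38.01 to 47.61 TPM. The ranges of these 2 genes overlapped, and Nfkbia was the higher one in 3 of 4 libraries. Nfkbib had 29.7 to 31.2 TPM, Nfkb1, the precursor p105 of the subunit p50, had 15.1 to 17.6 TPM, and Relb, the partner of p52 in the noncanonical pathway, had 12.6 to 13.8 TPM. Nfkbie had 7.02 to 8.17 TPM and Ikbkb 5.07 to 6.25 TPM. At the lower end, Rel (2.49 to 3.24 TPM), the subunit best known from lymphocytes, and Tnfaip3 (2.08 to 2.93 TPM) overlapped in range, although Rel was above Tnfaip3 in all 4 libraries. The other neighbours in this order did not overlap. The plot of TPM by library shows that the order of levels spans a wider range than any difference between libraries.

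**Figure D1:**
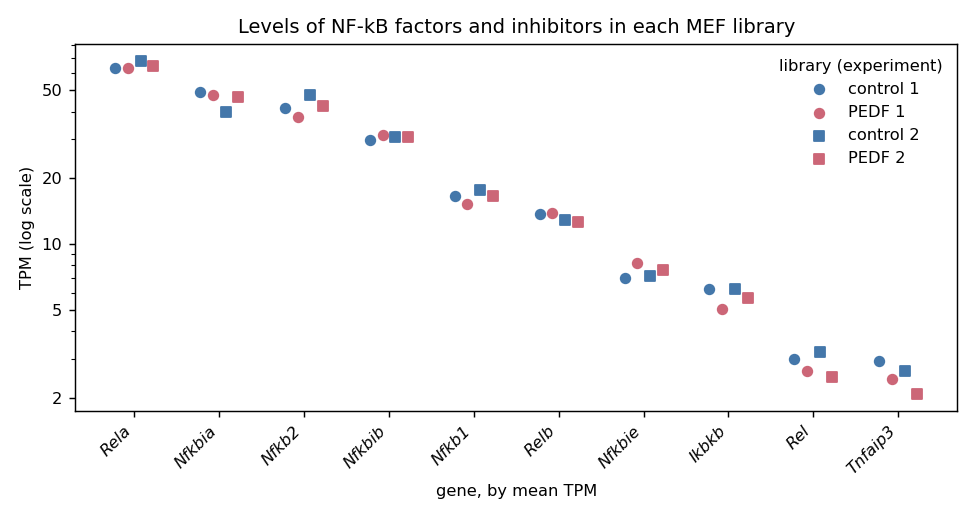
TPM (log scale) of the 10 genes in each library, ordered by mean TPM, with control libraries in blue, PEDF libraries in red, circles for experiment 1 and squares for experiment 2. Rela lies above 63 TPM and Tnfaip3 below 3 TPM in all 4 libraries, and control and PEDF points of each gene lie close together.

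The position of Ikbkb in this order depended on the length used. Its annotated exons cover 19078 bp while its coding length is 2358 bp, and it ranked 8 of the 10 genes per kb of exon but 6 per kb of coding sequence, where it had 16.6 CPM per kb against 10.9 for Relb and 6.86 for Nfkbie. By coding length Nfkb1 (23.9 CPM per kb) also moved above Nfkbib (21.8 CPM per kb). CPM is the count relative to the library's total, scaled by edgeR's TMM factors. In the mouse genome build mm10, Rela lies on chromosome 19 from 5637483 to 5648130, Nfkb1 on chromosome 3 from 135584655 to 135691547, Ikbkb on chromosome 8 from 22659212 to 22706589, and Nfkbia on chromosome 12 from 55489410 to 55492647. Nfkb2 shares 531 bp of exon with AC114539.1 and 299 bp with Psd, and Nfkbib shares 314 bp with Ccer2 and 42 bp with Sirt2, all on the opposite strand. The libraries were directional, but the strand setting of the counting was not given in the sources used here, so some reads of these pairs may be assigned to the wrong gene.

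Next, the composition of the family was examined in each library. Among the 5 subunits, Rela made up 45.8% and 45.6% of the summed TPM in control MEFs and 47.5% and 46.5% after PEDF. The share of Rela was thus higher in both PEDF libraries. The share of Nfkb2 was 30.1% and 31.8% in control and 28.6% and 30.6% with PEDF. The shares of Nfkb1 (11.4% to 12.0%) and Relb (8.62% to 10.4%) overlapped between the groups. Rel contributed 2.17% and 2.16% in control and 1.99% and 1.80% with PEDF, so that its share was lower in both PEDF libraries. Among the 3 IkB genes, Nfkbia held 51.3% to 57.2%, Nfkbib 34.6% to 39.5% and Nfkbie 8.18% to 9.38%. The ratio of summed IkB TPM to summed subunit TPM was 0.623 and 0.521 for control and 0.656 and 0.616 for PEDF, and was lowest in control 2. These shares are fractions of RNA, and the groups overlapped for most of them.

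**Figure D2:**
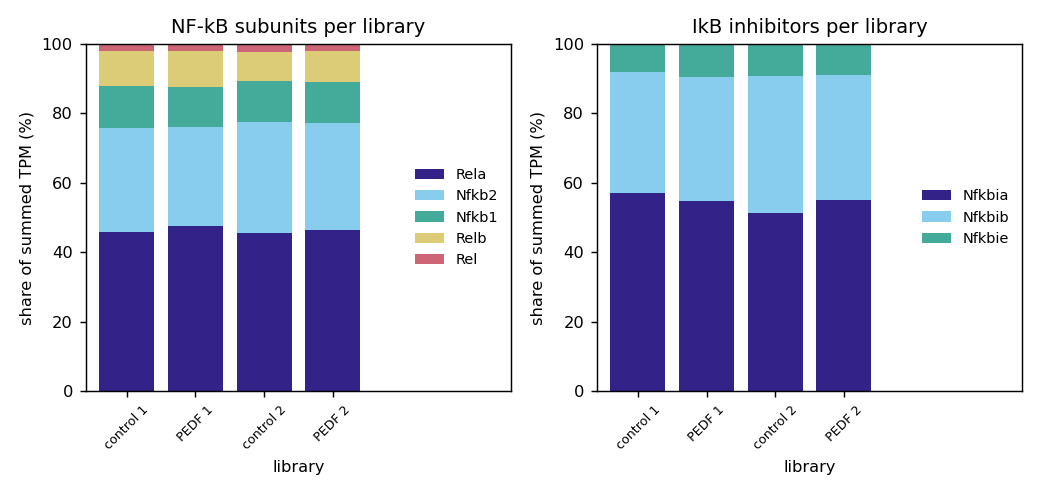
Share of summed TPM (%, stacked bars) taken by each of the 5 NF-kB subunits (left) and each of the 3 IkB inhibitors (right) in the 4 libraries. Rela takes 45.6% to 47.5% of the subunits in every library, and the smallest Nfkbia share (51.3%) is that of control 2.

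PEDF-treated MEFs were then compared with control MEFs to ask whether the factor moved the transcripts of this pathway. By the quasi-likelihood test of edgeR with Benjamini-Hochberg adjustment over all genes, the 10 genes had adjusted p values of 0.718 to 0.99, and none passed the threshold of 0.05. Of the 19384 genes tested, 1 passed (0.00516%). DESeq2 and limma on log2(TPM + 1) also gave 0 of 10, where they called 3 and 0 of the 19384 genes. An unadjusted p under 0.05 was found for 1 of the 10 in edgeR, compared with 6.88% of all genes tested, and for none in DESeq2 or limma. The 95% intervals of the 10 fold changes lay between 0.615-fold and 1.46-fold. The median log2 fold change of the 10 genes was -0.0541, compared with 0.00118 over all genes tested.

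The 2 MEF preparations can be taken out of the spread by fitting the experiment as a block. With the block, 0 of the 10 genes passed the adjusted threshold of edgeR, compared with 3.75% of all genes tested. An unadjusted p under 0.05 was then found for Ikbkb and Nfkb2, 2 of 10, compared with 14.6% of all genes. With only 4 libraries, the block leaves little replication from which to measure spread. DESeq2 with the block gave Ikbkb a standard error of 0.15, against 0.08 in edgeR, and neither gene had an unadjusted p under 0.05 there.

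Among the subunits, Rela had 68.9 and 72.4 CPM in control (experiment 1, then experiment 2) and 70.7 and 68.6 CPM with PEDF. The groups overlapped, and the log2 fold change was -0.02 (standard error 0.08, 95% interval -0.19 to 0.15). Nfkb1 had 70.7 and 73.5 CPM in control and 66.7 and 69.1 CPM with PEDF, a log2 fold change of -0.09 (-0.25 to 0.08). Both PEDF libraries were below both control libraries, by a small amount that was nearly equal in experiment 1 (-0.09) and experiment 2 (-0.09). Nfkb2 had 67.6 and 75.4 CPM in control and 63.6 and 67.5 CPM with PEDF, a log2 fold change of -0.13 (standard error 0.08, -0.30 to 0.05). Nfkb2 was also lower in both PEDF libraries, although the 2 nearest values, 67.6 and 67.5, hardly differed.

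Relb had 18.9 and 17.3 CPM in control and 19.6 and 17.0 CPM with PEDF. It differed more between the experiments than between the treatments, and its log2 fold change with PEDF was 0.01 (standard error 0.13, -0.26 to 0.28). Rel had 7.93 and 8.35 CPM in control and 7.21 and 6.46 CPM with PEDF, from 112 to 149 counts per library. The groups did not overlap, and the log2 fold change was -0.26 (standard error 0.18, -0.64 to 0.12, adjusted p = 0.792 in edgeR's test). The lower CPM was -0.14 on the log2 scale in experiment 1 and -0.37 in experiment 2.

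Of the inhibitors, Nfkbia had 28.05 and 22.26 CPM in control and 27.99 and 26.21 CPM with PEDF. The 2 libraries of experiment 1 were alike (log2 ratio -0.00), while in experiment 2 the PEDF library was higher by 0.24 on the log2 scale, which rested on the low value of control 2. The log2 fold change over both experiments was 0.11 (standard error 0.12, -0.14 to 0.37), and it was -0.05 without control replicate 2. Nfkbib had 22.90 and 23.10 CPM in control and 24.71 and 23.12 CPM with PEDF, a log2 difference of 0.06 (standard error 0.11). The groups of Nfkbib were separated by only the last digit of the values of experiment 2. Nfkbie, a later-acting IkB, had 7.59 and 7.51 CPM in control and 9.07 and 8.08 CPM with PEDF, both above the control values. Its log2 fold change was 0.18 (standard error 0.17, -0.19 to 0.55).

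Tnfaip3, which removes activating ubiquitin chains from upstream adaptors and ends the response, had 7.52 and 6.61 CPM in control and 6.43 and 5.22 CPM with PEDF. It was lower in both PEDF libraries, with a log2 fold change of -0.28 (standard error 0.20, -0.70 to 0.14, adjusted p = 0.794 in edgeR's test). Ikbkb, the kinase that phosphorylates the IkB proteins, had 42.4 and 41.1 CPM in control and 35.3 and 37.7 CPM with PEDF. This gene had the smallest unadjusted p of the family, with a log2 fold change of -0.19 (standard error 0.09, -0.38 to -0.01, unadjusted p = 0.0445 and adjusted p = 0.718 in edgeR's test, or 0.196 with the block). It therefore did not pass the test over all genes.

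Within each experiment there was 1 library per condition, so only counting error can be given, with exact binomial 95% intervals of the ratio of counts. In experiment 1 the interval excluded a log2 ratio of 0 for 1 of the 10 genes, compared with 20.1% of all genes tested, and in experiment 2 for 3 of the 10, compared with 25.5%. Among the 8231 genes in the same range of counts as the family, the shares were 21.4% and 27.6%. The intervals without 0 were those of Ikbkb in experiment 1 (-0.43 to -0.10), and Nfkb2 (-0.27 to -0.05), Rel (-0.74 to -0.01) and Nfkbia (0.04 to 0.43) in experiment 2. None of these genes had an interval without 0 in both experiments.

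**Figure D3:**
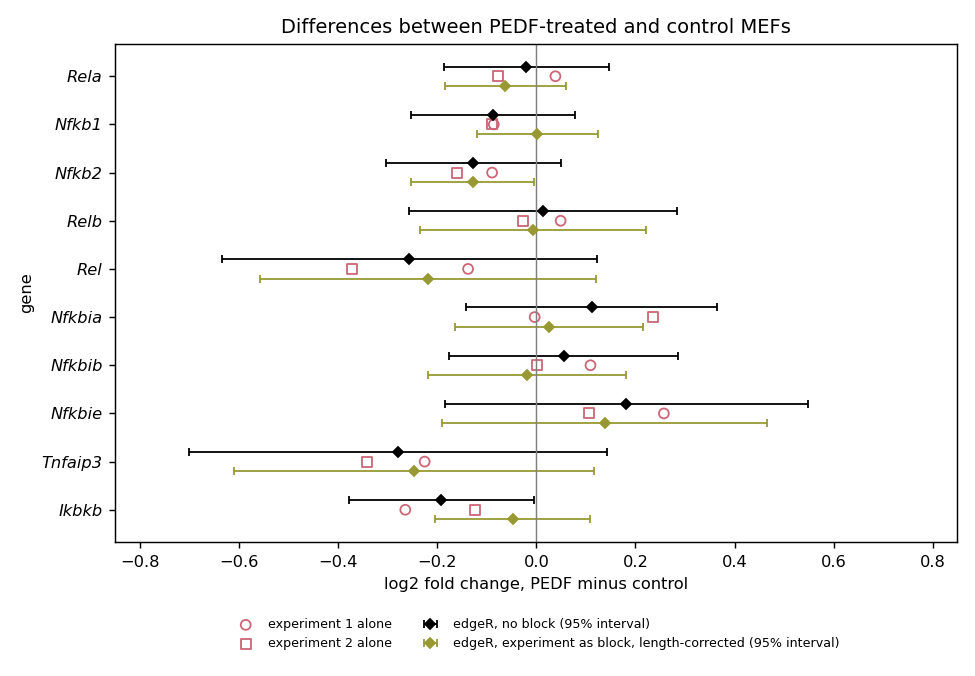
Log2 fold change of PEDF-treated against control MEFs for the 10 genes, with edgeR estimates and 95% intervals without a block (black) and with the experiment as a block and a gene length correction (olive), and the ratio in each experiment alone (open red symbols). The black intervals lie between -0.70 and 0.55, and Ikbkb moves from -0.19 to -0.05 with the correction.

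The direction of the small differences was then set beside the length of the genes. Nfkb1, Nfkb2, Rel, Tnfaip3 and Ikbkb had lower CPM in both PEDF libraries than in both control libraries, 5 of 10 genes, compared with 18.4% of all genes tested. Nfkbib and Nfkbie had higher CPM in both, 2 of 10, compared with 18.9%. The 5 genes that were lower are the 5 with the longest exons in this family, from 4584 bp in Nfkb2 to 19078 bp in Ikbkb, while the other 5 cover 1610 bp (Nfkbia) to 3885 bp (Relb). Over all tested genes with exons of at least 4584 bp, 1941 of 7403 (26.2%) were lower in both PEDF libraries and 966 were higher. Of those with at most 3885 bp, 1385 of 10349 (13.4%) were lower and 2358 (22.8%) were higher. The lengths of this split were taken from the family after its values were seen. Rela, with exons of 3072 bp, also had an estimate below 0.

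A fit with the block that also removed the trend of each library with gene length moved several of the estimates towards 0, and that of Rela away from it (from -0.02 to -0.06). The log2 fold change of Nfkb1 became 0.00 (-0.12 to 0.12) and that of Ikbkb -0.05 (-0.21 to 0.11), so that the low unadjusted p of Ikbkb was lost (0.551), while Nfkb2 had an unadjusted p of 0.0415 at -0.13. Nfkbia became 0.03 (-0.17 to 0.22) and Nfkbib -0.02. Rel (-0.22), Tnfaip3 (-0.25) and Nfkbie (0.14) moved less, and none of the 10 passed the adjusted threshold in this fit, compared with 2.21% of all genes. An unadjusted p under 0.05 was found for 1 of the 10 and for 11.6% of all genes. The part of gene length in the differences was not tested in any other way.

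The MEF preparations were also compared with each other. Between experiment 2 and experiment 1, 0 of the 10 genes passed the adjusted threshold of edgeR, compared with 0.0567% of all genes, and none had an unadjusted p under 0.05, compared with 7.67%. With the treatment as a term the count was also 0, compared with 4.49%, and 1 gene, Nfkbia, had an unadjusted p under 0.05, compared with 14.8%. DESeq2 and limma also gave 0, where they called 14 and 0 of the 19384 genes tested. Relb and Nfkbia were lower in both libraries of experiment 2 than in both of experiment 1, 2 of 10 genes, compared with 18.4% of all genes tested. Nfkbia had a log2 difference of -0.21 (standard error 0.11, adjusted p = 0.707 in edgeR's test) between experiments 2 and 1, which was -0.10 without control replicate 2 and -0.33 without PEDF replicate 2. Relb had one of -0.16 (standard error 0.12). Tnfaip3 had a difference of -0.24 (standard error 0.20), which ranged from -0.42 without control replicate 2 to -0.08 without PEDF replicate 2.

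Markers of the cells that a MEF culture can hold were examined in the same libraries. The 8 fibroblast markers were all detected, with Col1a1 at 17300 to 24000 CPM. In edgeR without the block 0 of the 8 passed, with 3 at an unadjusted p under 0.05, compared with 6.88% of all genes. With the block 4 of them passed with negative estimates (Col1a1, Col1a2, Pdgfrb and Fn1), where 3.75% of all genes passed. Thy1 (0.12) and Vim (0.01) had positive estimates in the same fit and did not pass. With the length correction 3 passed, without Col1a2 (-0.03, edgeR adjusted p = 0.816), beside 2.21% of all genes. All 8 macrophage markers had counts in every library, and their summed level was 140.1 and 90.0 CPM in control and 139.9 and 114.6 CPM with PEDF. For Nfkbia, as for this sum, control 2 was the lowest library, PEDF 2 came next, and both libraries of experiment 1 were the highest. Not all of the markers had this order. Csf1r (33.7 and 30.3 CPM in control, 29.3 and 28.6 CPM with PEDF) and Ptprc (3.52 and 3.92, then 4.70 and 2.58) were lowest in PEDF 2. The other macrophage markers were lowest in control 2. Centred on its mean, the log2 CPM of Nfkbia was 0.109 and -0.225 in control 1 and 2 and 0.105 and 0.0109 in PEDF 1 and 2, while the sum of macrophage markers stood at 0.233 and -0.405 and at 0.23 and -0.0578. Of these markers, Lyz2 had 26.3 CPM in control 2 and 46.1 to 62.6 CPM in the other libraries, and was the 1 macrophage marker that passed with the block (log2 fold change 0.39, edgeR adjusted p = 2.02e-05). Without the block Lyz2 did not pass (0.34, standard error 0.60, edgeR adjusted p = 0.940), and of the 8 macrophage markers 5 had positive and 3 had negative estimates. The part of macrophages in the level of Nfkbia was not tested. In a bulk sample, a change in the number of such cells and a change in RNA per cell cannot be told apart. Lymphocyte markers gave at most 4 counts each in a library, the endothelial marker Tie1 was at 0, and the endothelial sum was 14.3 to 14.8 CPM. The sum of 5 epithelial markers was 55.4 and 41.7 CPM in control and 54.0 and 42.4 CPM with PEDF. Its library order was also that of Nfkbia, through Krt8 (23.6 and 13.1 CPM in control, 22.8 and 15.7 CPM with PEDF), while Krt18 and Cdh1 were lowest in PEDF 2.

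The genes most like Nfkbia were sought among 12918 tested genes with at least 200 counts, by the root mean square difference of the centred log2 CPM over the 4 libraries. The closest were Plcg2 (0.00762), a phospholipase of immune receptor signaling, and Rpl31 (0.00794), a ribosomal protein. The ranking rests on 4 libraries and is a description.

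**Figure D4:**
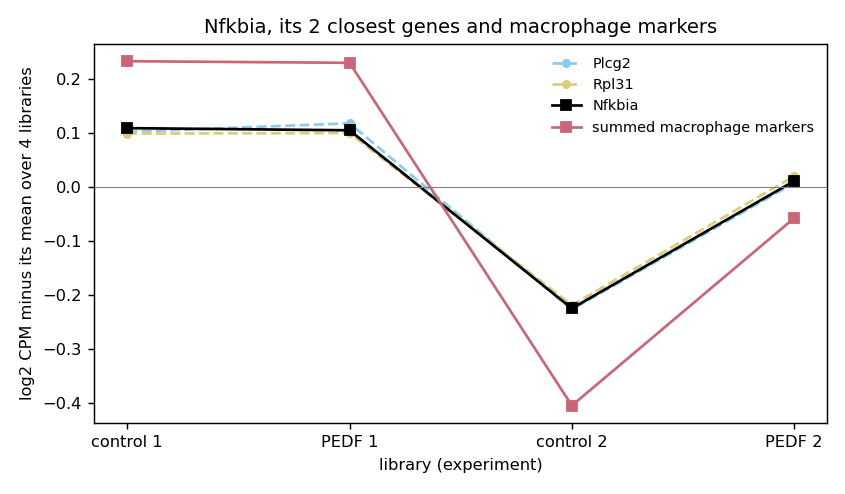
Log2 CPM minus its mean over the 4 libraries (y axis) for Nfkbia, the 2 genes closest to it and the sum of 8 macrophage markers, in each library (x axis). All 4 lines are lowest in control 2, where Nfkbia stands at -0.225 and the macrophage sum at -0.405.

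The rest of the pathway was described with 94 further genes in 5 lists, of which 84 were tested. In edgeR without a block none passed the adjusted threshold, and 9 had an unadjusted p under 0.05, beside 6.88% of all genes. DESeq2 and limma also gave 0, where they called 3 and 0 of all genes tested. They had 2 and 7 of the 84 at an unadjusted p under 0.05. With the block, 1 of 84 passed, beside 3.75% of all genes. The gene was Nfkbiz, which encodes IkB zeta, a nuclear IkB that is itself induced by NF-kB and assists the expression of genes such as Il6. It had 22.0 and 25.9 CPM in control and 16.8 and 19.5 CPM with PEDF. The groups did not overlap, with lower CPM in both PEDF libraries, as in 18.4% of all genes tested. Without the block, the log2 estimate of edgeR was -0.40 (standard error 0.13, adjusted p = 0.696). With it the estimate was again -0.40 (standard error 0.11, adjusted p = 0.0110 in edgeR's test), against a standard error of 0.20 in DESeq2 with the block. After the length correction it was -0.39 (adjusted p = 0.0194), while DESeq2 with the block gave no adjusted p for Nfkbiz and an unadjusted p just above 0.05. Nfkbiz also passed in edgeR without the block when control replicate 1 was left out (adjusted p = 0.0370), and not when any other library was.

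Of the 18 other inhibitors and feedback genes, all were tested, and 10 had positive and 8 negative estimates, with a median log2 fold change of 0.0425. Rnf11, an A20 partner, had the highest level (mean 61.9 TPM) and an estimate of 0.12. Otulin, which cleaves linear ubiquitin chains, had 19.4 and 18.6 CPM in control and 24.8 and 22.8 CPM with PEDF (log2 fold change 0.32, edgeR adjusted p = 0.696, or 0.0634 with the block and 0.347 with the length correction). Zc3h12a, which encodes the RNase Regnase-1 that degrades cytokine transcripts, had 5.62 and 7.12 CPM in control and 4.12 and 4.43 CPM with PEDF (log2 fold change -0.58, edgeR adjusted p = 0.696, or 0.0878 with the block).

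In the list of 22 kinases and adaptors, no gene passed in either fit, and the median log2 fold change was -0.0338. Tab2, an adaptor of the kinase TAK1, had the highest level (59.8 TPM) and an estimate of -0.04. The estimates ranged from -0.34 in Ikbke, an IKK-related kinase, to 0.30 in Tradd, the adaptor of TNF receptor 1. Of 14 receptor genes, 13 were tested and none passed. The TWEAK receptor gene Tnfrsf12a had the highest level (201 TPM, log2 fold change 0.05), and those with at least 50 counts lay between -0.35 (Cd40) and 0.25 (Tlr6), which had only 154 counts in total. Both ends changed sign when a single library was left out, Tlr6 to -0.63 without PEDF replicate 2 and Cd40 to 0.08 without PEDF replicate 1.

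Ligand transcripts had few counts. Of 11 ligand genes 7 were tested, Cd40lg had no count, and Tnf had 4 to 8 counts per library. The highest was Tnfsf12, which encodes TWEAK, with 14.3 TPM and a log2 estimate of 0.21 (standard error 0.18), or 0.11 with the block and the length correction. The median of the ligand list was 0.208, compared with 0.00118 over all genes, with 5 of 7 estimates above 0. Its summed level was 21.8 and 19.7 CPM in control and 26.7 and 26.5 CPM with PEDF. Most of this sum came from Tnfsf12 (7.25 CPM in control 1) and from Tnfsf11 and Il33, which are described under the other observations. Il18 had 5 and 18 counts in control and 25 and 13 with PEDF, which gave 0.73 (standard error 0.60). This value was 0.08 without PEDF replicate 1, 0.19 without control replicate 1, and 1.75 without control replicate 2.

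NF-kB target genes gave a median log2 fold change of -0.00402 over 24 tested genes of 29, with 11 estimates above and 13 below 0 and none past the threshold in either fit. Ier3, an immediate early target, had the highest level (104 TPM) and a log2 fold change of -0.09 (standard error 0.09), or -0.18 with the block and the length correction (edgeR adjusted p = 0.281). Cxcl1 had 33 and 20 counts in control and 45 and 18 with PEDF (0.22, standard error 0.49). This estimate ranged from -0.71 to 0.81 with single libraries left out. Il6, a senescence-associated cytokine, had 13 and 22 counts in control and 10 and 11 with PEDF (-0.75, standard error 0.53, adjusted p = 0.794 in edgeR's test).

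**Figure D5:**
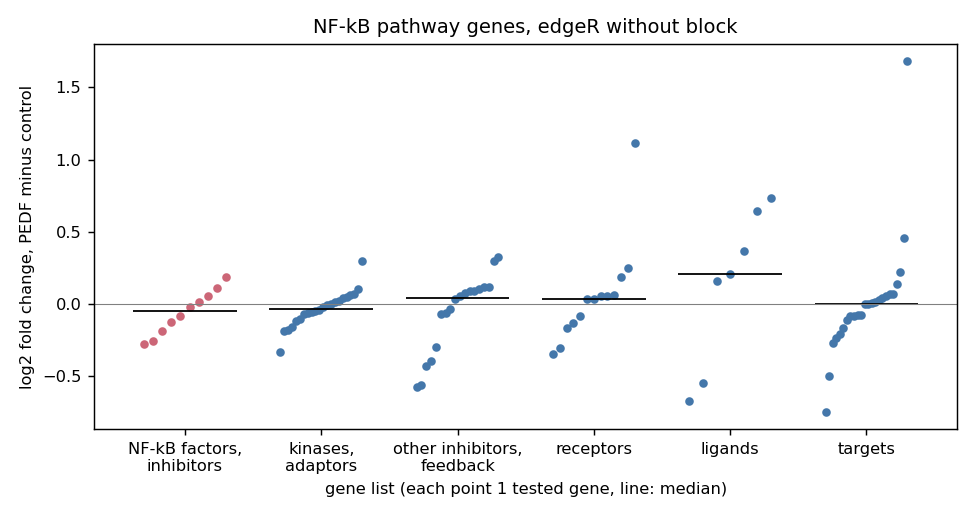
Log2 fold change of PEDF-treated against control MEFs (edgeR without a block) for each tested gene of the NF-kB family described here and of 5 lists of the pathway, with a line at each median. The medians are -0.0541 for the family, -0.0338 for the kinases and adaptors, 0.0425 for the other inhibitors, 0.0322 for the receptors, 0.208 for the ligands and -0.00402 for the targets.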

How the data were processed

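The labels give the MEFs as passage 2, and the paper gives the sequenced cells as passage 3. Polyadenylated RNA of the 4 MEF libraries was sequenced, and per the labels and the methods of the study the authors trimmed the reads with Trimmomatic 0.38, aligned them with HISAT2 2.1.0 (build mm10) and counted uniquely mapped reads with featureCounts 1.6.3. The authors deposited these raw counts and, in a second table, TPM. The lengths implied by TPM were proportional to the summed exon lengths of the genes described. The annotation and the strand setting were not given either, and 54784 of 55487 genes have the coordinates of GENCODE M21. Exon and coding lengths were taken from that release.

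Genes with at least 10 counts over the 4 libraries were compared with edgeR 4.0.16 in R 4.3.3 (TMM factors, robust quasi-likelihood test, Benjamini-Hochberg adjustment). Standard errors were derived from the F statistic. No covariate entered the main comparison. Per the labels, each experiment gave 1 library of each condition, and the design text of the series states that MEFs of each experiment came from different embryos, so the experiment number was taken to pair the libraries. The differences between experiments in control and in PEDF libraries correlated across 10722 genes, those whose mean log2 CPM exceeded 3 (r = 0.423). The alternatives were DESeq2 1.42.0, RLE factors, 2 other filters, the experiment as a block in both tools, the block with a spline correction for gene length (5 degrees of freedom), limma 3.58.1 on log2 TPM (pseudocount 1), and leaving out each library. The methods were tested on simulated data with 200 genes changed 4-fold, which is more than the differences described here. For PEDF against control, edgeR without a block called 156 of them and 0 unchanged genes. With the block it called 173 of them and 11 unchanged genes.

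The genes of the family and all lists were chosen with earlier results of these data known. Of the lists, the genes named are those with an adjusted p under 0.05 with or without the block, the highest mean TPM, and the extreme log2 fold changes among genes with at least 50 counts. For likeness to Nfkbia the rule named the 3 closest genes, of which the first and the second are given and the third is not reported here. Depth limits precision for genes of few counts. Intervals of counts cover counting error only, since PCR copies are not independent molecules.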

Additional observations from a re-analysis of the deposited data

How the results depend on the processing

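No gene of the family passed an adjusted p under 0.05 under any alternative that gave one, in either comparison (0 to 0 with single libraries left out). With the experiment as a replicate block, 0 of the 10 genes passed in edgeR, beside 3.75% of all genes. Without it, few genes of any kind passed with PEDF. DESeq2 called 3 and limma 0 of 19384 genes, and a stricter filter in edgeR left 0 of 16487. DESeq2 with the replicate block gave no adjusted p for these 10 genes, and unadjusted values fell under 0.05 for 0 of these and for 0 of the 84 other pathway genes. Of the other pathway genes, 1 passed with the replicate block in edgeR and 2 of 84 passed with the replicate block and the gene length correction, beside 2.21% of all genes, and 0 to 1 with single libraries left out (1, Nfkbiz, without control replicate 1). The median log2 fold change of the family lay between -0.0854 and -0.0514 with single libraries left out.

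Some estimates close to 0 changed sign. With the replicate block and the length correction, Nfkb1 became 0.0022, Relb -0.00665, Nfkbib -0.0191 and Tnfrsf12a -0.0272. With limma on log2(TPM + 1), Relb became -0.0117 with PEDF, and Rel 0.0115 and Nfkbib 0.0127 between the experiments. The rank of Ikbkb by level per length was 8 by exon length and 6 by coding length, an alternative chosen after seeing the data.

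With single libraries left out, the estimates with PEDF ranged from -0.0562 to 0.0165 for Rela, -0.0891 to 0.11 for Relb, -0.0514 to 0.28 for Nfkbia, -0.10 to 0.0148 for Tab2, -0.63 to 0.77 for Tlr6, -1.03 to 0.0846 for Cd40, -0.19 to 0.0132 for Ier3 and -0.71 to 0.81 for Cxcl1. Without a change of sign, they ranged from -0.20 to -0.05 for Nfkb2, -0.43 to -0.13 for Tnfaip3, 0.08 to 1.75 for Il18, 0.01 to 0.22 for Rnf11, 0.10 to 0.27 for Nfkbie, 0.00759 to 0.10 for Nfkbib and -0.96 to -0.48 for Il6. Between the experiments they ranged from -0.0232 to 0.0514 for Rela, -0.23 to 0.14 for Rel, -0.10 to 0.013 for Nfkbib, -0.22 to 0.039 for Nfkbie, -0.10 to 0.16 for Ikbkb, and, with no change of sign, -0.33 to -0.10 for Nfkbia, -0.42 to -0.08 for Tnfaip3, 0.04 to 0.20 for Nfkb2 and 0.00904 to 0.10 for Nfkb1. A fit without 1 library leaves a lone sample, assumed to vary like the other group. Where an estimate moved, the cause was not tested.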

Other observations

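A few genes outside the rule for naming, chosen after their values were seen, add to the picture of the pathway. Tnip2, which encodes an A20-binding inhibitor of NF-kB, had 14.7 and 13.7 CPM in control and 11.1 and 9.93 CPM in PEDF-treated MEFs. Its log2 fold change was -0.43 (standard error 0.15, adjusted p = 0.696) in edgeR without a block, the adjusted p was 0.0507 with the block, and it was 0.0301 with the block and the correction for gene length, at a log2 fold change of -0.49. In DESeq2 with the block, Tnip2 had no unadjusted p under 0.05.

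Il33, an alarmin of stromal cells, had 4.47 and 2.80 CPM in control and 6.18 and 5.11 CPM with PEDF (log2 fold change 0.64, edgeR adjusted p = 0.696, or 0.0673 with the block). The groups did not overlap, and 18.9% of all genes tested were likewise higher in both PEDF libraries than in both control libraries. Tnfsf11, which encodes RANKL, had 9.08 and 7.62 CPM in control and 10.4 and 11.1 CPM with PEDF (log2 fold change 0.37, edgeR adjusted p = 0.713, or 0.189 with the block). Neither passed the threshold over all genes.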
